A study of Mus musculus with 4 samples.

Results

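The loss of Fundc1 under HySu was examined in mouse lung cells outside the endothelium. Of 25982 cell barcodes deposited for 4 single-cell libraries, 9169 belonged to the HySu pair compared here, with 5041 in the wild-type library (HSW) and 4128 in the FUNDC1 knockout library (HSK). HySu is a mouse model of pulmonary hypertension in which hypoxia is combined with SU5416, an inhibitor of the VEGF receptor, here given in 3 weekly doses to both HSW and HSK mice. The normoxia wild-type (NW) and normoxia FUNDC1 knockout (NK) libraries came from mice that were given vehicle, and they stand beside the HySu pair as a reference for the same knockout without the treatment. All mice were 11 weeks old, and each library pooled the lung cells of 5 mice. The labels do not say which allele was used or in which cells the gene was deleted, although the series title speaks of the endothelium. With 1 library a group there is no replicate, so no difference below has a test, and square brackets give 95% intervals that cover counting error only.

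FUNDC1 is a receptor in the outer mitochondrial membrane. It binds the autophagosome protein LC3 and so marks mitochondria for mitophagy, the removal of damaged or surplus mitochondria, in particular in hypoxia. BNIP3 and BNIP3L are receptors of the same kind, while PINK1 and parkin mark mitochondria through ubiquitin. In the lung, alveolar type 2 (AT2) cells make surfactant, alveolar macrophages clear it, monocytes enter from the blood, interstitial macrophages lie along vessels and airways, and fibroblasts lay down the matrix that stiffens vessels in pulmonary hypertension.

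Libraries differed in ways that bear on the comparison. The lowest UMI (unique molecular identifier) count of a deposited barcode was 4230 in HSW and 4726 in HSK, and the median was 7185 and 7845.5. Cells carrying the marker genes of a second lineage were removed before clustering, and these made up 27.5% of barcodes in HSW but 15.4% in HSK. Of 7146 kept cells, 6629 fell in classes named by marker genes outside the endothelium, 3397 in HSW and 3232 in HSK. There were 20 barcode sequences shared by the HySu libraries. Xist was seen in 0 barcodes of HSW and 2 of HSK.

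Genes were compared in 8 classes with at least 50 cells on both sides, which held 2945 cells in HSW and 3065 in HSK. AT2 cells were 975 cells (26.7% of kept cells) in HSW and 1241 (35.6%) in HSK, a share ratio of 1.33 [1.22, 1.45], against 1.04 [0.956, 1.12] for NK over NW. Alveolar macrophages were 853 cells (23.3%) and 1218 (34.9%), a ratio of 1.495 [1.37, 1.63], against 1.30 in normoxia. Club cells, the secretory cells of the airway, were 55 and 98 cells, a ratio of 1.87 [1.33, 2.65]. An unnamed cluster led by Scgb1a1 and Cyp2f2, with the ciliated markers Ccdc153 and Dynlrb2 also among its leading genes, was not counted with them. It held 60 cells in HSW and 54 in HSK. The cells of the blood and lymphoid lineages lay on the other side. Classical monocytes, the Ly6c2-high cells that enter inflamed tissue, were 564 cells (15.4%) in HSW and 176 (5.04%) in HSK, a ratio of 0.327 [0.274, 0.388], and the ratio of NK to NW was 0.675. T and NK cells were 156 and 52 cells, a ratio of 0.349 [0.25, 0.481], while in normoxia the knockout had the larger share (1.37). Outside this class, an unnamed cluster led by Il7r and Tcf7 held 3 cells in HSW and 9 in HSK. Dendritic cells were 2.46% of kept cells in each library. An unnamed cluster led by Cd209a and Cd7, with Flt3 and Ccl4 also among its leading genes, was not counted with them. It held 37 cells in HSW and 13 in HSK, which entered neither this share nor the gene values of the class. Another, led by Retnla and Fcrls with Mgl2 among its leading genes, held 1 and 6. Fibroblasts (139 and 110 cells, 0.829 [0.639, 1.07]) and interstitial macrophages (113 and 84 cells, 0.778 [0.580, 1.04]) had intervals that included 1. The UMI minimum and the share of barcodes removed as mixed also differed between the libraries, and some of these shares moved with both. With all barcodes kept the share ratio was 1.51 for AT2 cells and 1.76 for alveolar macrophages, against 0.372 for classical monocytes. Above the highest library minimum the 3 ratios were 1.33, 1.36 and 0.320.

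**Figure D1:**
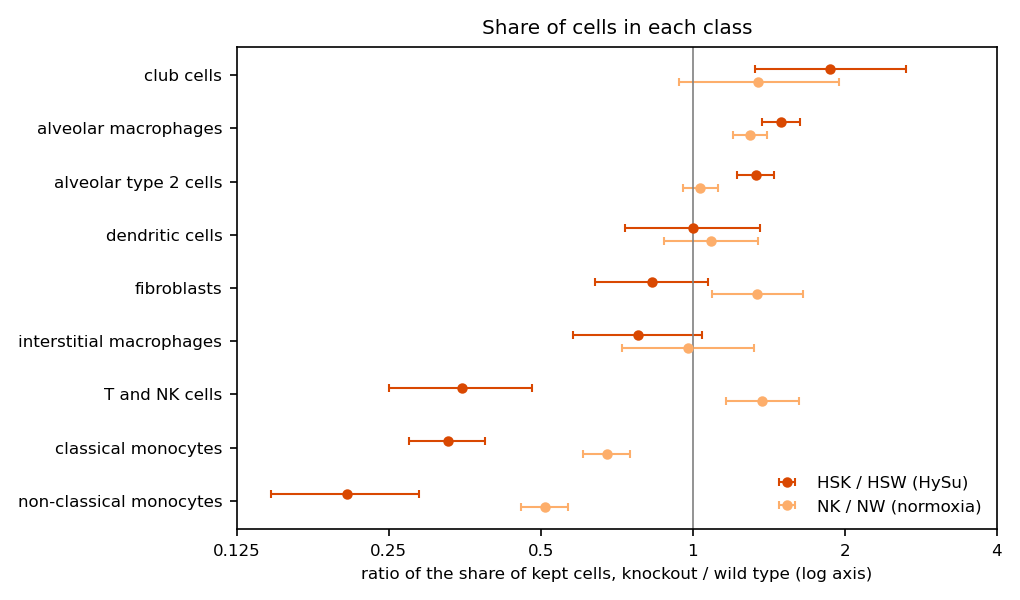
Share of each cell class among kept cells, as the ratio of HSK to HSW and of NK to NW on a log axis, with 95% counting intervals as bars. AT2 cells, alveolar macrophages and club cells lie above 1 in the HySu pair, while classical monocytes, at 0.327, and T and NK cells, at 0.349, lie below it.

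Fundc1 itself was nearly absent from HSK in every class compared. The gene lies on chromosome X of GRCm38 (17556564 to 17572325, minus strand). Its total was taken over all kept cells outside the endothelial classes, with cells in no named class included. Among the latter, clusters with Plvap and Ptprb among their leading genes held 8 and 16 cells in HSW and 5 and 6 in HSK. In all, Fundc1 had 1900 UMIs in NW and 40 in NK, against 1296 in HSW and 9 in HSK. As CPM (counts-per-million of the UMIs of a class) these were 43.9, 0.943, 38.6 and 0.256, and HSK was 151-fold lower than HSW (ratio 0.00664 [0.00303, 0.0127]). The residual level was lower in HSK than in NK, whose ratio to NW was 0.0215.

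Alveolar macrophages held the most Fundc1 UMIs of the compared classes, with 567 UMIs (52.9 CPM) in HSW and 2 UMIs (0.143 CPM) in HSK, 369-fold lower. AT2 cells had 219 UMIs (30.2 CPM) and 1 UMI, 286-fold lower. Fibroblasts had 45 UMIs (53.2 CPM) and 1 UMI, 39.0-fold lower. Levels in HSW thus ran from 17.7 CPM in club cells to 53.2 CPM in fibroblasts, and those in NW from 18.3 CPM in club cells to 65.9 CPM in dendritic cells. In the other compared classes HSK had no Fundc1 UMI, and against a floor of 3 counts HSK was at least 18.1-fold lower in classical monocytes (176 UMIs in HSW), 14.3-fold in club cells (25), 13.3-fold in dendritic cells (45), 10.1-fold in interstitial macrophages (34) and 3.57-fold in T and NK cells (29). Ciliated cells kept 2 UMIs in HSK against 15 in HSW.

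**Figure D2:**
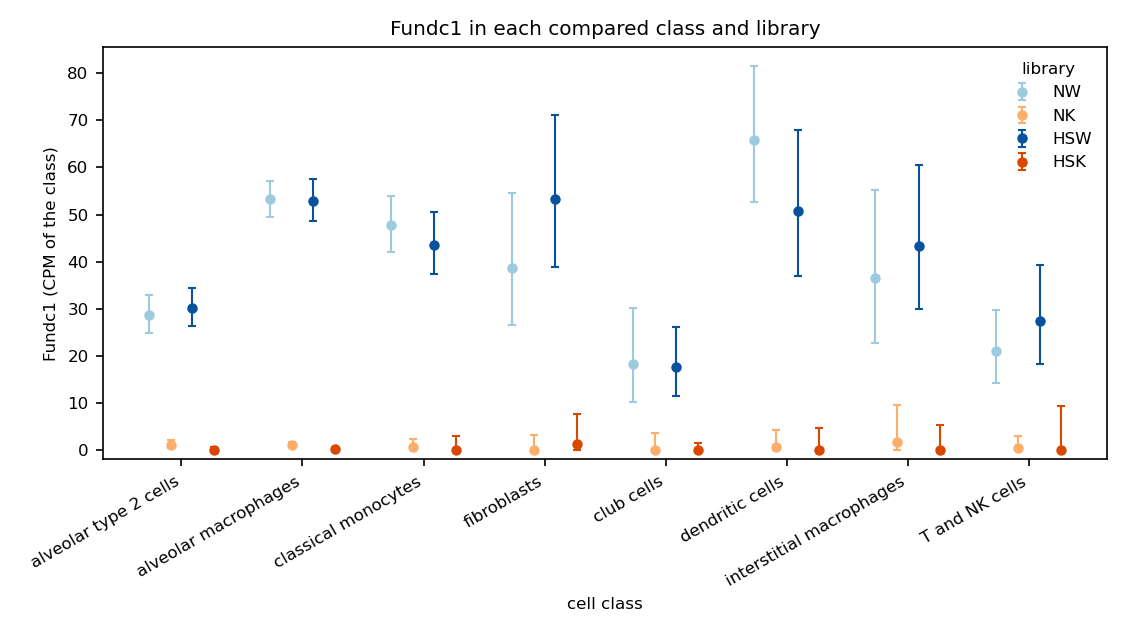
Fundc1 in each compared class and library, in CPM, with 95% Poisson intervals as bars. Every wild-type point lies well above the knockout points of the same class, and HSW stands at 52.9 CPM in alveolar macrophages and 30.2 CPM in AT2 cells against 0.143 and 0.106 CPM in HSK.

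The other mitophagy and mitochondrial genes differed little between HSK and HSW in the largest classes. A gene was counted as past the fold when HSK and HSW differed at least 1.5-fold and the counting interval left out 1, over genes with at least 50 UMIs in the pair and 20 CPM in one library. Of 4230 such genes in AT2 cells, 0.567% were past the fold upward and 0.52% downward. In alveolar macrophages the shares were 0.603% and 0.31% of 5803 genes. Of the list of mitophagy receptors and adaptors, Fundc1 was the only one of 13 measured members past the fold in AT2 cells and the only one of 14 in alveolar macrophages. In AT2 cells the list had a median log2 ratio of -0.12, beside -0.03 over all genes, and 12 of 13 members had a ratio below 1. Fundc2, the paralog of Fundc1, stood at 1.19 times HSW in AT2 cells and 0.888 times in alveolar macrophages. The hypoxia-induced receptor Bnip3 stood at 0.885 and 0.795 in the same order, and the autophagy adaptor Sqstm1 at 0.912 and 0.914. None of these was past the fold.

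Bnip3l and Pink1 stood on different sides of 1 in the normoxia and the HySu pair. Under normoxia the knockout had more Bnip3l in AT2 cells (1.49 times) and alveolar macrophages (1.69 times), while under HySu the ratios were 0.975 and 0.952. Pink1, the kinase that starts ubiquitin-dependent mitophagy, stood at 1.36 and 1.35 in normoxia and at 0.868 and 0.823 under HySu. In classical monocytes both were past the fold downward. They were 2 of the 3 of 13 list members that passed downward, Fundc1 being the other, beside Nbr1 upward (1.51, not past the fold without the highest cell of each library). Bnip3l was 46.4 CPM in NW and 70.9 in NK, against 76.1 in HSW and 50.6 in HSK (0.665 [0.499, 0.875]). Pink1 was 38.7, 58.5, 40.9 and 21.7 CPM (0.530 [0.339, 0.8]). The background in classical monocytes was far higher than in AT2 cells and alveolar macrophages, with 5.59% of 5655 genes past the fold upward and 4.39% downward, so the share of the list is to be read against that.

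Core autophagy genes, which build the autophagosome, had no member past the fold among 13 measured in AT2 cells and 17 in alveolar macrophages. The mitochondrially encoded respiratory chain genes had none past the fold in AT2 cells, alveolar macrophages or classical monocytes, with medians of -0.12, -0.24 and -0.05. In the normoxia pair the medians of the same genes were -0.50, -0.82 and -0.42. The nuclear-encoded subunits of the chain leaned the other way under HySu. In AT2 cells 63 of 74 had a ratio above 1, with a median of 0.10, and in alveolar macrophages 57 of 74, with a median of 0.07. The normoxia medians of the nuclear list were -0.19 and -0.16. No median over all genes was computed for the normoxia pair, so a shift common to all genes there is not set apart. No nuclear subunit was past the fold in AT2 cells or alveolar macrophages, and with TMM scaling the median of all genes moved by 0.04 and 0.02 in these classes.

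Surfactant genes were level in AT2 cells of the knockout. None of the 24 surfactant and lipid secretion genes was past the fold, and their median was -0.07. Sftpc, the most abundant transcript of the class, was 288400 CPM in HSW and 286800 in HSK (0.995), Sftpb stood at 0.868, Sftpd at 1.03 and the lipid transporter Abca3 at 0.868. Neither did the alveolar type 1 list differ past the fold (0 of 6 measured), and of 22 transitional genes, which mark AT2 cells on the way to type 1 cells, only Sprr1a passed, with Krt8 at 1.09 times.

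Several named genes were higher in AT2 cells of both knockouts. Here and below, runs of 4 CPM values without library names follow the order NW, NK, HSW, HSK. Rgcc, a regulator of the cell cycle, was 156 CPM in NW and 484 in NK, against 156 in HSW and 259 in HSK, a HySu ratio of 1.66 [1.55, 1.78] and a normoxia ratio of 3.11. It was seen in 463 cells of HSW and 829 of HSK, and it was higher in both main clusters of the class. Irx1, an Iroquois transcription factor, was 243, 462, 145 and 210 CPM (1.44 [1.34, 1.56], and 1.91 in normoxia). Errfi1, an inhibitor of the EGF receptor, was 291, 503, 171 and 231 CPM (1.35, and 1.73 in normoxia). Pmvk, which encodes phosphomevalonate kinase of sterol synthesis, was 68.9, 118, 46.6 and 72.2 CPM (1.55, and 1.72). Its HySu ratio was 0.995 [0.769, 1.29] in one main cluster of the class and 1.87 [1.59, 2.20] in the other. Summed over the class, the 4 genes share the pattern that the wild-type libraries lie below the knockout libraries of the same treatment. For each of them the normoxia ratio was the larger one.

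Sprr1a, a cornified envelope precursor, was 1.85 CPM in NW and 11.0 in NK, against 29.4 in HSW and 55.4 in HSK (1.89 [1.61, 2.22]). It came from few cells, 12 in HSW and 13 in HSK, and the highest cell alone held 35.2% and 40.8% of its UMIs. Bambi, a decoy receptor of the TGF-beta family (1.34), and the splicing factor Tra2a (1.34) were also higher. Retnla, a secreted resistin-like protein of type 2 immunity, was 183, 104, 545 and 802 CPM, 1.47 times [1.42, 1.53] HSW in HSK but 0.569 times NW in NK. Its highest cell held 31.2% of its UMIs in HSW and 21.6% in HSK. The ATP synthase subunit gene Atp5l was 48.2, 37.1, 49.8 and 72.0 CPM (1.45), and Prcd stood at 1.49.

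On the lower side in AT2 cells, none of the 10 genes named for the size of their ratio was past the fold. Tfcp2l1, a transcription factor, was 95.6 CPM in NW and 102 in NK, against 53.8 in HSW and 37.4 in HSK (0.694 [0.5996, 0.804]). Neat1, the RNA scaffold of nuclear paraspeckles, was 216, 226, 147 and 105 CPM (0.715). Slc12a2, the sodium, potassium and chloride cotransporter of fluid secretion, was 357, 392, 181 and 129 CPM (0.715). In each of these 3 genes the normoxia ratio lay between 1.05 and 1.10, and HSK was the lowest of the libraries. Bmp4, a ligand of the BMP receptors through which heritable pulmonary hypertension acts, was lower in both knockouts, at 45.0, 25.0, 54.2 and 41.3 CPM (0.761 [0.660, 0.878], and 0.555 in normoxia). Apoc1 (0.762), Vsig2 (0.736), the monoamine oxidase gene Maob (0.758), Rbbp6 (0.747), Ap2m1 of the clathrin adaptor (0.763) and Mir703 (0.730) completed the lower genes.

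Of 4 measured aryl hydrocarbon receptor targets 2, Cyp1a1 and Cyp1b1, which encode oxidising enzymes, were past the fold in AT2 cells, at levels of 1.80% and 8.37% of those in their highest classes. Cyp1a1 was 2.27 CPM in NW and 5.202 in NK, against 52.5 in HSW and 108 in HSK (2.06 [1.83, 2.32]). Cyp1b1 was 2.56, 2.31, 87.7 and 156 CPM (1.78 [1.62, 1.958]). Both were thus far higher in the HySu pair, and highest in HSK. Sod3, the extracellular superoxide dismutase, was 7.39, 8.96, 16.4 and 38.1 CPM (2.32 [1.88, 2.88]), a level of 1.71% of that in its highest class. The clock repressors Nr1d1 (0.574 [0.484, 0.680]) and Bhlhe40 (0.624 [0.511, 0.761]) were lower, 2 of 5 measured clock genes. Among 46 genes past the fold in AT2 cells, 24 were higher and 22 lower. The split was 35 and 17 with TMM scaling, but 22 and 32 with Scrublet calls alone removed and 7 and 12 with only genes near their highest class, so it carries no direction.

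Transcripts of neutrophils and macrophages were also higher in AT2 cells of HSK. Of 9 measured neutrophil genes 5 were past the fold upward, with a median of 0.78 against -0.13 in normoxia. S100a8 was 377 CPM in NW and 273 in NK, against 214 in HSW and 438 in HSK (2.05 [1.94, 2.18]), 0.247% of its level in the highest class. The 10 neutrophil markers summed to 541 CPM in HSW and 913 in HSK, none at 0, and the 12 alveolar macrophage markers to 237 and 376 CPM. Their part in the results of this class was not tested.

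**Figure D3:**
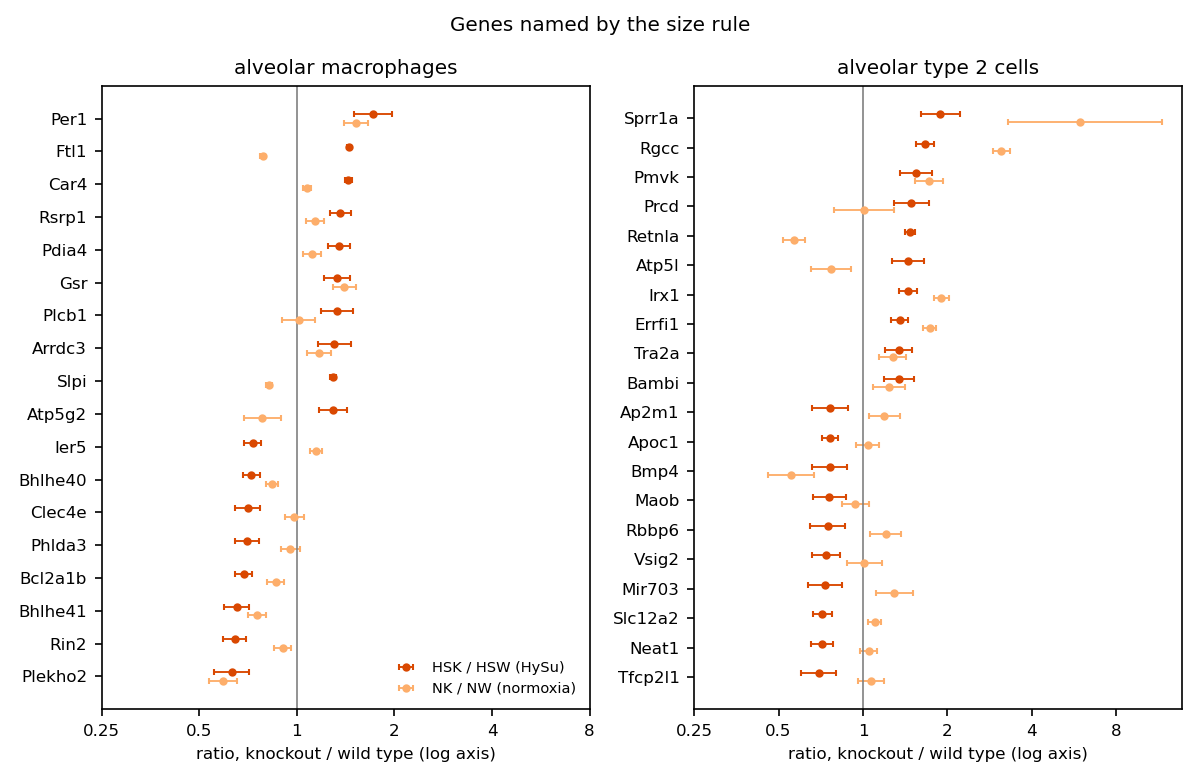
Ratios of HSK to HSW and of NK to NW for named genes of alveolar macrophages and AT2 cells on a log axis, with 95% counting intervals as bars. In AT2 cells Rgcc, Irx1 and Errfi1 lie further from 1 in normoxia than under HySu, while Retnla lies above 1 under HySu (1.47) and below it in normoxia (0.569).

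Identity genes were level in alveolar macrophages of HSK. Of 26 measured members 1 was past the fold, the transcription factor Bhlhe41, and the median was -0.03. Fabp4 stood at 0.994 times HSW, Fabp1 at 0.982, Marco at 0.958, the mannose receptor gene Mrc1 at 1.04 and Pparg, the nuclear receptor that sets the lineage, at 0.858. Bhlhe41, which with Bhlhe40 maintains these cells, was 144 CPM in NW and 109 in NK, against 103 in HSW and 67.0 in HSK (0.653 [0.598, 0.713], and 0.753 in normoxia), and it was lower in both main clusters (0.648 and 0.672). Bhlhe40 was 315, 264, 198 and 143 CPM (0.724 [0.681, 0.770], and 0.838). Both paralogs were lowest in HSK.

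On the higher side in alveolar macrophages, Per1 alone of the 10 genes named for the size of their ratio was past the fold. Ftl1, the ferritin light chain, was 2087 CPM in NW and 1637 in NK, against 3214 in HSW and 4643 in HSK (1.45 [1.43, 1.46]), the reverse of its normoxia ratio of 0.784; reads of its processed pseudogenes could be split between copies. Gsr, which encodes glutathione reductase, was 66.6 CPM in HSW and 88.8 in HSK (1.33, and 1.40 in normoxia), while 0 of 28 measured NRF2 targets and antioxidant enzymes were past the fold and 18 had a ratio below 1. Car4, a membrane carbonic anhydrase and a marker of the class, was 745, 801, 876 and 1263 CPM (1.44 [1.41, 1.48]), and it was higher in both clusters (1.53 and 1.34). Per1, a clock gene that glucocorticoids also induce, was 64.2, 97.7, 30.1 and 51.6 CPM (1.71 [1.5, 1.959], and 1.52 in normoxia). Pdia4, a disulfide isomerase of the endoplasmic reticulum, stood at 1.35, the antiprotease Slpi at 1.30, the ATP synthase subunit Atp5g2 at 1.29, Rsrp1 at 1.36, Plcb1 at 1.33 and Arrdc3 at 1.31. In normoxia Slpi (0.822) and Atp5g2 (0.782) lay below 1, as Ftl1 did.

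On the lower side, Plekho2 was 72.8 CPM in NW and 43.0 in NK, against 54.1 in HSW and 34.0 in HSK (0.629 [0.556, 0.711]), nearly the normoxia ratio of 0.591. Rin2, a regulator of the endocytic GTPase Rab5, stood at 0.643, the p53 target Phlda3 at 0.702, Clec4e, a receptor for mycobacterial lipid, at 0.704, and Ier5 at 0.730. Bcl2a1b, of a family of near-identical survival genes between which reads may be split, stood at 0.686. The interferon regulator Irf1 was lower too, at 35.1 and 21.8 CPM (0.620 [0.532, 0.724]). Of 53 genes past the fold, 35 were higher and 18 lower, and 28 and 24 with the mean of each cell's CPM. With each cell thinned the split was 48 and 50, and with only genes near their highest class 6 and 12.

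Some large ratios of alveolar macrophages rested on few cells. Mmp12, the macrophage elastase, was 5.51 CPM in HSW and 77.3 in HSK (14.1 [10.8, 18.6]), but 1 HSK cell held 82.1% of its UMIs there, and without the highest cell of each library the ratio was 3.15. Ccl17, a chemokine for T cells, was 2.80 and 25.2 CPM (9.004), with 66.2% in 1 cell and a ratio of 5.07 without it. Spp1, which encodes osteopontin, stood at 1.18. The replication licensing genes Mcm2 (1.64), Mcm5 (1.59) and Mcm6 (1.56) were past the fold, 3 of 15 measured cell cycle genes, while the proliferation marker Mki67 stood at 0.835. Cycling cells, those with at least 3 of 20 mitotic genes after thinning to 4705 UMIs, were 2.02% (17 of 841) in HSW and 2.22% (27 of 1218) in HSK, a ratio of 1.10 [0.576, 2.14].

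Surfactant transcripts in alveolar macrophages were higher in HSK, with 5 of 17 measured past the fold and a median of 0.28. Sftpc was 1802 CPM in NW and 2574 in NK, against 1584 in HSW and 2812 in HSK (1.78 [1.74, 1.81]), which is 0.980% of its level in AT2 cells. The 10 AT2 markers together were 1.37 to 1.77 times as high in HSK as in HSW in all 7 compared classes other than AT2 cells. Neutrophil markers summed to 707 and 1105 CPM in alveolar macrophages, and 6 of 17 neutrophil genes were past the fold. The AT2 cells made up a larger share of HSK, and the part of free RNA in these values was not tested.

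Interferon response genes were lower in classical monocytes of HSK. Of 37 measured members, 9 were past the fold downward and 0 upward, 35 had a ratio below 1, and the median log2 ratio was -0.34 beside 0.02 over all genes of the class. The normoxia median of the list was 0.01. Many promoters of such genes carry a repeated GAAA element through which interferons act. Of the 9 genes past the fold, 6 had a promoter in the table, and the 4 that held the element are shown as the 250 bases before the start site (RefSeq, GRCm38.p6, 5′ to 3′ on the gene's strand), with each match in capitals. A match was a pair of GAAA blocks with any 2 bases between them, or a pair of TTTC blocks for the other strand, and matches may overlap.

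Cxcl10 (chr5:92348890-92349139, minus): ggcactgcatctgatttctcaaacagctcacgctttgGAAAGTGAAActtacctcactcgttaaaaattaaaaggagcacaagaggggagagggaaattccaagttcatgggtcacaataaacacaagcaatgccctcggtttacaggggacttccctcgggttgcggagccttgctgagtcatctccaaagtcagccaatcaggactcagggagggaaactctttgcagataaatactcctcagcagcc
Isg15 (chr4:156200819-156201068, minus): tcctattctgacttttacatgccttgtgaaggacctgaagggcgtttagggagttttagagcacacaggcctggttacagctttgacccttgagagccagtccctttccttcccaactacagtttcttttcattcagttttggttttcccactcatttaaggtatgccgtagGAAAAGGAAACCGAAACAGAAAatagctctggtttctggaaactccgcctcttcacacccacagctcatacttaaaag
Ifit1 (chr19:34640639-34640888, plus): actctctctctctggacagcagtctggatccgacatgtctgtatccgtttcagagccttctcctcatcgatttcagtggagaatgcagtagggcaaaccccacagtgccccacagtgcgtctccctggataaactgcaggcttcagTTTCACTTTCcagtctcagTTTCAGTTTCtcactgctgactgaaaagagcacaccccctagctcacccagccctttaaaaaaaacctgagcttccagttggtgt
Oas3 (chr5:120777660-120777909, minus): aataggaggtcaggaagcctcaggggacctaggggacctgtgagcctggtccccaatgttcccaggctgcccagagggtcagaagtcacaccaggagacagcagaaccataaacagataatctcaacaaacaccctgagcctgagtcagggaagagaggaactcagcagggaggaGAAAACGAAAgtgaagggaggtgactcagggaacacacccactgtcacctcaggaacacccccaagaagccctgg

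The matches begin 213 bases before the start site in Cxcl10, 75 in Oas3, 104 and 85 in Ifit1, and 78, 72 and 66 in Isg15, where the 3 overlap. Of 32851 promoters that the table gives, 2.98% held the element within 250 bases, and of the 4434 measured in monocytes 3.92% did. Among measured interferon genes with a promoter 15 of 27 (55.6%) held it, and among those past the fold 4 of 6 (66.7%); the promoters of Oasl1 and Ddx58 held none. A match describes the letters only.

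Cxcl10, the chemokine that draws activated T cells, had the largest difference of the list, at 274 CPM in NW and 153 in NK, against 339 in HSW and 145 in HSK (0.429 [0.365, 0.501]), and was seen in 199 cells of HSW and 45 of HSK. Isg15, a ubiquitin-like modifier, was 149 CPM in HSW and 73.1 in HSK (0.490, and 0.538 in normoxia). Ifit1, which binds foreign RNA, was 23.04 and 12.1 CPM (0.523, and 0.389 in normoxia). These 3 were also lower in the normoxia knockout, whereas Parp14 and Oas3 were not. Parp14 was 77.8 CPM in NW and 78.5 in NK, against 80.5 in HSW and 36.9 in HSK (0.459 [0.329, 0.626]). Oas3, a sensor of double-stranded RNA, was 35.7 and 19.3 CPM (0.540, with 1.24 in normoxia). Oasl1 (0.526) and the RNA sensors Ddx58 (0.594) and Dhx58 (0.620) were also past the fold.

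Not every interferon gene was low: Rsad2 stood at 0.947, Bst2 at 0.934, Ifi47 at 0.855 and Ifitm3, the most abundant of those named, at 0.830 (7076 and 5874 CPM). The list as a whole summed to 13400 CPM in HSW and 11170 in HSK. Its 5 richest cells held 2.51% of the list's UMIs in HSW and 6.81% in HSK, and without the highest cell of each gene 11 members were past the fold downward. The median was -0.20 with removal of Scrublet calls alone. The class stood on 564 cells in HSW and 176 in HSK.

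**Figure D4:**
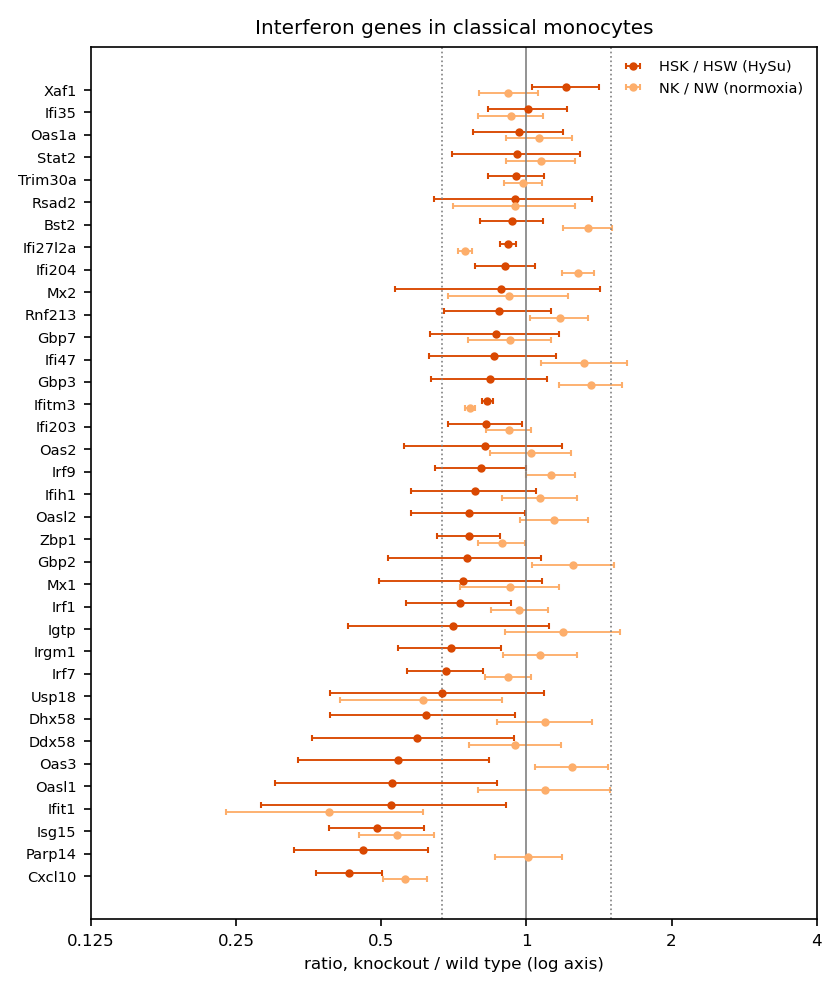
Ratios of HSK to HSW and of NK to NW for measured interferon response genes of classical monocytes on a log axis, with 95% counting intervals as bars and dotted lines at 1.5-fold. In the HySu pair nearly every gene plotted lies below 1, with Cxcl10 at 0.429, while the normoxia ratios scatter on both sides of 1.

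Several cytokine genes of classical monocytes were lower as well. Il6 was 21.0 CPM in NW and 4.43 in NK, against 33.9 in HSW and 8.83 in HSK (0.260 [0.127, 0.480], and 0.211 in normoxia). Tnf was 124, 114, 124 and 72.3 CPM (0.582 [0.460, 0.730]). The chemokine Ccl4 was 859, 695, 1755 and 1100 CPM (0.627), and Ccl2, the ligand of Ccr2, was 406, 381, 577 and 352 CPM (0.609). For these cytokines HSK stood below HSW by 1.5-fold or more, and Tnf, Ccl4 and Ccl2 had normoxia ratios of 0.809 to 0.938. Over the whole chemokine list the direction was mixed, with 3 of 13 measured members past the fold downward, Cxcl10 among them, and 2, Cxcl15 (1.81) and Ccl5 (1.63), upward, and a median of 0.09. Of 15 measured inflammasome and interleukin-1 genes 4 were past the fold downward and 1, Ptgs2 (2.23), upward. Immediate early genes, which the digestion of tissue also induces, had 21 of 22 members below 1, with Klf2 at 0.651, Egr1 at 0.583 and Gadd45b at 0.648. MHC class I genes had 14 of 16 below 1 (median -0.22, against 0.20 in normoxia), none past the fold. The markers of the class differed less, with Ly6c2 at 0.878 and Ccr2 at 0.923.

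Outside the lists, the lowest genes in classical monocytes were the lectin gene Clec2i (68.9 and 28.9 CPM, 0.420), Pilrb1 (128 and 57.0 CPM, 0.446), the antiviral cytidine deaminase Apobec3 (54.3 and 24.9 CPM, 0.459) and Phf11b (105 and 49.8 CPM, 0.474). Pilrb1 and Phf11b have close copies, between which reads may be split. The highest were Xpo1, the nuclear export receptor (29.5 and 57.8 CPM, 1.961 [1.44, 2.65]), Eml4 (1.95), Atp5g2 (40.4 and 76.3 CPM, 1.89), Ufl1, a ligase of the modifier UFM1 (1.87), Pqbp1 (1.84) and Timm50 of the mitochondrial import machinery (34.2 and 61.8 CPM, 1.81). The normoxia ratios of these 6 higher genes ran from 0.859 to 1.21. Over the class 316 genes were higher and 248 lower, 259 and 305 with TMM scaling, and 182 and 384 without the highest cell of each gene.

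Transcripts of other cells were higher in these monocytes too. The 10 AT2 markers summed to 2648 CPM in HSW and 4678 in HSK (1.77), none at 0, and 9 of 19 surfactant genes were past the fold upward. Of 17 alveolar macrophage identity genes 10 were past the fold upward, 4 without the highest cell of each gene, while the 12 markers of that class summed to 3503 and 3348 CPM. The MHC class II genes H2-Eb1 (55.0 and 98.0 CPM, 1.78), H2-Ab1 (1.66) and H2-Aa (1.65) were higher, 3 of 6 measured, at 0.797% to 1.00% of their level in the highest class. Their part in the lower interferon values was not tested.

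Interstitial macrophages of HSK had higher levels of genes of the repair and lipid-associated state, which macrophages enter when they clear debris and lipid. Of 3577 genes measured in the class 6.18% were past the fold upward and 7.18% downward. Of 28 measured repair genes 13 were past the fold upward and 2 downward, with a median log2 ratio of 0.55 beside -0.03 over all genes, and 0.24 in normoxia. Without the highest cell of each gene 9 were past the fold upward and 2 downward. The list was concentrated in few cells, since its 5 richest cells held 32.1% of its UMIs in HSW and 54.3% in HSK.

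Spp1, which encodes osteopontin, was 149 CPM in NW and 299 in NK, against 1110.0 in HSW and 7686 in HSK (6.93 [6.45, 7.45]), in 28 cells of HSW and 31 of HSK, and the ratio was 7.38 without the highest cells. Ctsl, the lysosomal protease cathepsin L, was 177, 262, 906 and 6316 CPM (6.97 [6.44, 7.56]), in 80 and 75 cells, and 6.34 without the highest cells. Fabp5, a fatty acid carrier, was 24.8, 43.0, 233 and 1174 CPM (5.04 [4.29, 5.94]), and 10.2 without the highest cells. For each of these 3 genes the order of the libraries was NW, NK, HSW and HSK, from lowest to highest. Gpnmb, a lysosomal glycoprotein, was 6.62, 34.4, 358 and 1015 CPM (2.84, and 5.195 in normoxia), and Arg1, the arginase of alternatively activated macrophages, was 1.66, 39.6, 157 and 747 CPM (4.76). Ctsd (2.37) and Igf1 (1.56) were higher, and Cd36, Plin2, Ctsb, Cd63 and Hmox1, at 1.51 to 1.69, no longer passed without the highest cells.

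Chil3, a chitinase-like protein that marks alveolar macrophages and monocytes, was 904, 2104, 5721 and 16130 CPM (2.82), and 1 cell held 55.1% of its HSW UMIs, with a ratio of 4.61 without the highest cells. Retnla was lower (528 and 217 CPM, 0.412), with 71.7% of its HSW UMIs in 1 cell and a ratio of 0.662 without it, and Pdgfb, a growth factor of vascular smooth muscle, was 111, 44.7, 56.1 and 24.3 CPM (0.434, and 0.403 in normoxia). The markers of alveolar macrophages summed to 7242 CPM in HSW and 17800 in HSK (2.46) and those of classical monocytes to 7084 and 17790 (2.51). Both lists contain Chil3, which alone gave 5721 CPM of each HSW sum and 16130 of each HSK sum. No member of either list was at 0. Of the 12 alveolar macrophage markers 2 were past the fold upward and 0 downward, and of the 10 monocyte markers 6 and 1. The 10 markers of interstitial macrophages themselves summed to 39380 and 35820 CPM (0.910). The part of other macrophages in the repair values was not tested.

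**Figure D5:**
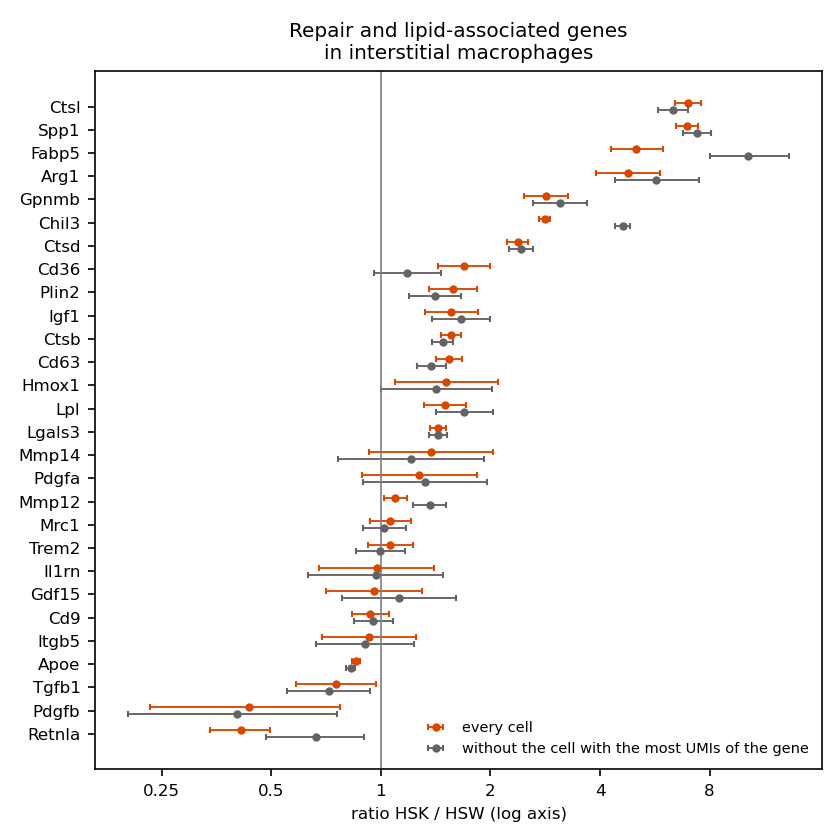
Ratio of HSK to HSW for the 28 measured repair genes of interstitial macrophages on a log axis, with every cell counted and without the highest cell of each gene in each library, and 95% counting intervals as bars. Spp1 and Ctsl stay near 7-fold in both, while genes such as Cd36 and Plin2 move toward 1.

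Outside that list, Hal, a histidine-degrading enzyme, was 1.66 CPM in NW and 41.3 in NK, against 3.82 in HSW and 70.1 in HSK (18.3 [5.92, 92.0]), from 2 cells of HSW and 16 of HSK, and the ratio was 40.4 without the highest cells. Mfge8, which bridges dying cells to phagocytes, was 66.2, 61.9, 85.4 and 967 CPM (11.3 [8.80, 14.8]), from 16 and 21 cells, and 10.5 without the highest cells. The chemokine Ccl24 stood at 6.17, but 1 cell held 82.4% of its HSK UMIs and the ratio was 1.42 without the highest cells. On the lower side, Cxcl13, a chemokine for B cells, was 618, 322, 98.1 and 4.29 CPM (0.0437 [0.00883, 0.133]), from 6 cells of HSW and 1 of HSK, so that no UMI was left in HSK without its highest cell. Ccl12, a monocyte chemokine, was 441, 783, 824 and 179 CPM (0.217 [0.178, 0.263]), with a normoxia ratio of 1.78. Egln2, a prolyl hydroxylase that senses oxygen (0.241), the sialyltransferase gene St3gal6 (0.266), the lysosomal Hgsnat (0.329) and Gtf2b of the general transcription machinery (0.339) were the other low genes. Of 22 measured chemokines and receptors 7 were lower and 3 higher, with Ccr2 at 542 and 299 CPM (0.552) and Ccl7 at 297 and 592 CPM (2.00), and 1 of the 3 higher ones still passed without the highest cells. Over the class 221 genes were higher and 257 lower.

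Fibroblasts of HSK had more Acta2, Eln and Ctgf and less Dcn and Lum than those of HSW. Of 4245 measured genes 3.6% were past the fold upward and 4.31% downward, 153 and 183 genes, and 193 and 614 with Scrublet calls alone removed. Of 12 contractile and smooth muscle genes 3 were past the fold upward, Acta2, Tagln (1.88) and Tpm2 (1.66), and 0 downward, with 2 left without the highest cell of each gene. Of 35 other matrix genes 2 were past the fold upward and 3 downward, with a median of -0.01. Acta2, the smooth muscle actin of activated fibroblasts, was 184 CPM in NW and 165 in NK, against 33.1 in HSW and 92.8 in HSK (2.80 [1.78, 4.52]), in 19 cells of HSW and 32 of HSK, and 2.47 without the highest cells. Eln, the gene of elastin, was 1124, 1044, 1024 and 1824 CPM (1.78 [1.63, 1.94]), and Ctgf was 286, 339, 150 and 276 CPM (1.84). Ltbp2, a matrix protein of elastic fibres, was 30.3, 66.4, 13.0 and 68.3 CPM (5.25 [2.70, 11.2]), from 4 cells of HSW and 14 of HSK, and 9.23 without the highest cells. Acta2 thus stood lowest in HSW, and in HSK it lay below both normoxia libraries, whereas Eln was highest in HSK.

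None of 15 collagens was past the fold, although 12 had a ratio above 1 (median 0.22, against -0.06 in normoxia and -0.01 over all genes under HySu). Col1a1 was 1989 and 2140 CPM (1.08), Col3a1 stood at 1.02, Col4a1 at 1.171 and Col14a1 at 0.720. Dcn, the proteoglycan decorin, was 4384, 4157, 6480 and 3872 CPM (0.598 [0.571, 0.626]), Lum, or lumican, was 154, 96.9, 167 and 65.5 CPM (0.393 [0.277, 0.549]), and Fbln5, a fibulin of elastic fibres, was 136, 132, 182 and 92.8 CPM (0.510). The 9 adventitial fibroblast markers summed to 26570 and 20410 CPM (0.768), with none at 0, and the 9 alveolar fibroblast markers to 11970 and 10810 (0.903). The 8 smooth muscle markers summed to 97.0 CPM in HSW and 203 in HSK (2.10), with 3 and 2 of them at 0, among these Myh11 and Cnn1 in both libraries. The part of a shift between fibroblast types was not tested.

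Glucocorticoid-induced genes were higher in fibroblasts, 5 of 11 measured, with a median of 0.37 under HySu and 0.51 in normoxia. Tsc22d3, which encodes the leucine zipper protein GILZ, was 205 CPM in NW and 455 in NK, against 108 in HSW and 274 in HSK (2.55 [1.98, 3.30]). Errfi1 was 168, 404, 75.7 and 150.1 CPM (1.98), and Sgk1, a kinase, was 186, 217, 59.1 and 116 CPM (1.962). Mt2 (1.62) and Lcn2 (1.67) were the other members past the fold. Each of the 3 genes given by library was higher in the knockout library of either treatment. Angptl4, a lipase inhibitor that glucocorticoids and PPAR induce, was 60.3 and 157 CPM (2.603, and 2.02 in normoxia), and the acute phase gene Saa3 was 7.26, 69.9, 562 and 1164 CPM (2.07, and 9.62 in normoxia).

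Growth factor genes of vessels and fibroblasts leaned down, with 5 of 24 past the fold downward and 1, Igfbp5 (1.53), upward. Pdgfa was 32.7 CPM in NW and 26.2 in NK, against 50.9 in HSW and 23.2 in HSK (0.456 [0.244, 0.817]), and Vegfa was 125, 107, 79.2 and 45.0 CPM (0.569 [0.363, 0.875]). Angpt2 stood at 0.548, Pdgfrb at 0.614 and Igfbp3 at 0.654. Without the highest cell of each gene 2 remained past the fold downward, Pdgfa and Vegfa, and 0 upward. Immediate early genes had 20 of 21 members below 1, with Btg2 at 570 and 310 CPM (0.544). Among the named genes, the lipocalin Apod was 230, 118, 429 and 132 CPM (0.308 [0.244, 0.387], and 0.513 in normoxia), F3, the tissue factor that starts clotting, was 166, 124, 162 and 57.3 CPM (0.354 [0.244, 0.503]), and the transcriptional repressor Hic1 was 83.5, 41.0, 50.9 and 17.7 CPM (0.349). Zfp36l2, which destabilises mRNA (0.283), and Atf7 (0.376) were also low, and Plekhh2 (2.88) and Bdp1 (2.67) high. Grem1, a BMP antagonist, and Thbs4, a thrombospondin, had 58 and 115 UMIs in HSK and 0 in HSW, at least 22.3-fold and 44.2-fold higher, but each came from 1 cell.

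Dendritic cells differed in chemokines. Of 3959 measured genes 6.26% were past the fold upward and 8.28% downward, 248 and 328 genes, a split of 343 and 227 with TMM scaling, so small ratios carry no direction in this class. Of 18 measured chemokines and receptors 9 were past the fold upward and 1 downward, with a median of 0.53, against -0.35 in normoxia. Ccl22, a chemokine of mature dendritic cells, was 841 CPM in NW and 529 in NK, against 605 in HSW and 1411 in HSK (2.33 [2.10, 2.59]). Ccl4 was 610, 374, 830 and 2072 CPM (2.50), and Ccl3 was 419, 202, 194 and 471 CPM (2.43). Cxcl10 was 55.1, 8.26, 46.2 and 105 CPM (2.28, and 3.82 without the highest cells), opposite in direction to its ratio in classical monocytes. Ccr7, the receptor that guides dendritic cells to lymph nodes (1.75), Ccl5 (1.91, and 2.95 without the highest cells), Cxcl2 (1.81), Ccl17 (1.56) and Cxcl1 (12.5, from 4 and 7 cells) were the others, and Ccr2 was lower (311 and 184 CPM, 0.592).

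The make-up of the class differed between the libraries. The cluster led by Xcr1 and Itgae, genes of cross-presenting cells, was 48.9% of dendritic cells in HSW and 26.7% in HSK, and that led by Mgl2 and Cd209a held 33 of 90 cells in HSW and 43 of 86 in HSK. Within the first, Ccl22 stood at 0.204 and Ccl17 at 0.440. Within the second they stood at 2.54 and 2.42. Ccl4 stood at 1.45 [0.983, 2.115] in the first, an interval that included 1, and at 2.13 [1.90, 2.39] in the second. Ccl22 had 128 UMIs in HSW and 12 in HSK in the first, and 51 and 153 in the second. Most Ccl22 UMIs of the class thus lay in neither. A cluster led by Ccl22 and Fscn1 held 8 dendritic cells in each library. One led by Ccl17, with Ube2c and Birc5 among its leading genes, held 5 in HSW and 12 in HSK. The 10 neutrophil markers summed to 557 CPM in HSW and 2131 in HSK (3.83), none at 0, and 12 of 14 measured neutrophil genes were past the fold upward, with S100a8 at 4.75 and 46.7% of its HSK UMIs in 1 cell (2.62 without the highest cells). The part of cluster sizes and of neutrophil RNA in the chemokine values was not tested.

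Of 14 inflammasome and interleukin-1 genes in dendritic cells 6 were past the fold upward, the decoy receptor Il1r2 (1.82), the NF-kB inhibitors Nfkbiz (1.79), Tnfaip3 (1.63) and Nfkbia (1.59), Ptgs2 (2.26) and Il1b (1.51), and 1, Il18 (0.551), downward. Some of these ratios differed between the same clusters. Nfkbia stood at 0.629 [0.466, 0.838] in the Xcr1 cluster and 1.173 [1.07, 1.29] in the Mgl2 cluster. Il1b stood at 9.67 [6.04, 16.1] and 0.525 [0.389, 0.707] in the same order. Tnfaip3 stood at 2.44 and 0.971, but the first rested on 8 and 9 UMIs, with an interval [0.837, 7.28] that included 1. Ptgs2, with 1 UMI of HSW in the Xcr1 cluster, stood at 1.06 in the Mgl2 cluster. Il1b and Ptgs2 are also members of the neutrophil list. Of that list, S100a8 stood at 11.0 [9.01, 13.5] and Retnlg at 23.9 [10.4, 67.4] in the Xcr1 cluster. Ccl3 and Icam1 lay below 1 there, with intervals that included 1. The part of neutrophil RNA in these interleukin-1 values was not tested. The metallothionein Mt1 was 771 and 1682 CPM (2.18) and the stress factor Atf3 was 994 and 1749 CPM (1.76). Atg5, a conjugation factor of the autophagosome, was 61.3 CPM in NW and 60.04 in NK, against 20.3 in HSW and 57.2 in HSK (2.82 [1.60, 5.17]), so that HSW stood apart from the other libraries. Map1lc3a (1.91) was higher and Gabarapl2 (0.632) lower, 3 of 11 core autophagy genes past the fold. Fcor (4.44), the histone gene Hist1h2bg (3.73), Kcne3 (3.38) and Cdkn3 (3.07, and 4.76 without the highest cells) were the other high named genes. Cdkn3 had 3 UMIs of HSW and 8 of HSK in the Xcr1 cluster, and 0 and 1 in the Mgl2 cluster. Most of its UMIs thus lay in other clusters, and the part of cluster sizes in these values was not tested. P2ry14, a receptor for UDP-sugars (59.7 and 12.7 CPM, 0.213), Pgp (0.152), Itpripl1 (0.245), Zfp593 (0.287) and Clu (0.0881, from 2 cells of HSW, and 0.167 without the highest cells) were low. Aldh1a2, which makes retinoic acid, stood at 0.292, but at 2.93 with the clusters weighted equally.

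Cell cycle genes were higher in T and NK cells of HSK. Of 3900 measured genes 8% were past the fold upward and 6.38% downward, 312 and 249 genes, 245 and 317 with TMM scaling, and 190 and 361 without the highest cell of each gene. Of 41 cell cycle genes 21 were past the fold upward and 0 downward, 38 had a ratio above 1, and the median was 0.60 beside 0.07 over all genes, with 0.43 in normoxia. Without the highest cell of each gene 14 were past the fold upward. Mki67 was 547 CPM in NW and 715 in NK, against 553 in HSW and 964 in HSK (1.74 [1.53, 1.99]), and Top2a, the topoisomerase of dividing cells, was 481, 675, 446 and 718 CPM (1.61). Both stood higher in the knockout library of each treatment. Nusap1 (2.18), Stmn1 (2.13) and Tyms (1.86) were also past the fold.

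After thinning, cycling cells were 57.3% [47.8, 66.4] (67 of 117) of T and NK cells in HSW and 80.8% [67.5, 90.4] (42 of 52) in HSK. The ratio was 1.41 [0.936, 2.105], an interval that included 1. With at least 2 genes the shares were 63.25% [53.8, 72.0] and 80.8% [67.5, 90.4]. With at least 5 genes they were 49.6% [40.2, 59.0] and 63.5% [49.0, 76.4], and at both of these cutoffs the intervals overlapped. Thinning left out 39 cells of HSW and 0 of HSK. The normoxia shares were 40.1% and 60.7%. Without thinning the HySu shares were 48.7% and 80.8%.

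Of 27 effector and activation genes of T and NK cells 6 were past the fold downward and 2 upward. Ccl5, a chemokine of memory and killer cells, was 1273 CPM in NW and 2371 in NK, against 5089 in HSW and 2063 in HSK (0.405 [0.376, 0.437], and 1.86 in normoxia). Eomes, the transcription factor of killer cells, was 94.2, 158, 68.9 and 23 CPM (0.334 [0.147, 0.670], and 1.67). Ifng was 146, 195, 154 and 86.9 CPM (0.565 [0.379, 0.822], and 1.34). The 3 genes were higher in the knockout in normoxia and lower under HySu. Gzmk (0.625, with 2.80 in normoxia), Il7r (0.593) and Lef1 (0.470) were the others past the fold downward. An unnamed cluster led by Il7r, Tcf7, Ets1 and Lck held 3 cells in HSW and 9 in HSK. Its cells did not enter the values or the cycling shares of this class, and the part of their absence was not tested. Icos, a costimulator of activated T cells, was 154 and 335 CPM (2.18), and Itgae (1.97) passed only with every cell counted.

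Some extreme ratios in T and NK cells rested on 1 cell. Il10 stood at 9.26, but 1 cell held 97.6% of its HSK UMIs and the ratio was 0.678 without the highest cells. Ifitm1 was 83.9 and 350.2 CPM (4.17), with 73.7% in 1 cell and 1.37 without it. The replication histone genes Hist1h2ab (3.47), Hist1h2bn (3.14) and Hist1h2ag (3.02), close copies of one another, and Trib2 (3.19) were the other high ones. Lgals3bp (76.4 and 12.8 CPM, 0.167), Dcaf8 (0.186, and 0.123 without the highest cells), Lcn4 (0.209), Snhg12 (0.305) and Smim4 (0.315) were low. All 6 measured MHC class II genes were past the fold downward, with a median of -1.13, but the 5 richest HSW cells held 66.5% of their UMIs and the median was -0.13 when HSW and HSK were clustered alone. Classical monocyte markers summed to 3953 and 1989 CPM in the class (0.503), none at 0, and their part was not tested.

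Club cells of HSK had more Reg3g, Bpifb1, Bpifa1 and Scgb3a1, genes of secreted airway proteins, from few cells for the first 3. Of 1596 measured genes 10.7% were past the fold upward and 3.2% downward, 171 and 51 genes, but 19 and 28 with each cell thinned, so that the upward excess was not kept. Reg3g, an antibacterial lectin, was 985 CPM in NW and 959 in NK, against 140 in HSW and 575 in HSK (4.11 [3.54, 4.79]), from 9 cells of HSW and 19 of HSK. Bpifb1, a secreted lipid-binding protein of the airway, was 1077, 1031, 59.3 and 197 CPM (3.31 [2.62, 4.23]), from 8 and 20 cells. Bpifa1, of the same family, was 2437, 2444, 163 and 1161 CPM (7.12), from 4 and 19 cells, with 95.2% of its HSW UMIs in 1 cell and a ratio of 91.5 without the highest cells. The 3 genes had nearly equal levels in the normoxia libraries and were lowest in HSW. Scgb3a1, a secretoglobin, was 16100, 8464, 6847 and 11830 CPM (1.73).

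Heat shock genes of club cells were higher, 5 of 11, with a median of 0.45 beside 0.11 over all genes, and 1.39 in normoxia. Hspb1 was 152 CPM in NW and 307 in NK, against 126 in HSW and 312 in HSK (2.48 [2.10, 2.94]), and Hspa1a was 98.8, 377, 37.4 and 78.0 CPM (2.08). The lower named genes differed less: Osgin1, an oxidative stress response gene (0.666, and 0.718 without the highest cells), the sodium channel subunit Scnn1b (0.691), the Notch target Hes1 (191 and 136 CPM, 0.712), catalase (Cat, 0.719), Nupr1 (0.733) and Mtus1 (0.741). Resp18 had 0 UMIs in HSW and 139 from 2 cells in HSK, at least 27.1-fold higher. Sncg had 0 UMIs in HSW and 200 in HSK, at least 39.0-fold higher, but 1 cell held 99.5% of them and it was not past the fold without that cell, and Uchl1 had 154 UMIs from 1 HSK cell against 2 in HSW, and none without that cell. These 3 are genes of neuroendocrine and neuronal cells.

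Some genes differed in direction between classes. Cxcl10 stood at 0.429 in classical monocytes and 0.561 in interstitial macrophages but at 2.28 in dendritic cells, and Ccl4 at 0.627 in classical monocytes, 0.511 in T and NK cells and 2.50 in dendritic cells. Ccr2 was lower in dendritic cells (0.592) and interstitial macrophages (0.552). Immediate early genes had most members below 1 in alveolar macrophages (21 of 23), classical monocytes (21 of 22) and fibroblasts (20 of 21). Mitochondrially encoded genes had none past the fold in any of the 8 classes, with medians from -0.30 in T and NK cells to 0.02 in club cells, and their normoxia medians were below 0 in each. Nuclear-encoded respiratory chain genes had more members above 1 than below it in 7 of the 8 classes, while in dendritic cells 31 lay above and 43 below. AT2 cells and alveolar macrophages had the lowest shares of genes past the fold, and they also had the most UMIs behind each gene.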

How the data were processed

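Lung cells from 4 groups, 1 pooled library each, were profiled in microwells. The deposited matrices hold a raw count of UMIs per gene and barcode, as whole numbers without normalization. The submitters' processing notes name STAR 2.6.1a, cutadapt 1.17, featureCounts 2.0.1 and Scanpy with builds GRCm38 and mm10, without settings or order.

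Clustering used all 4 libraries and scanpy 1.11.5 and leidenalg 0.10.2 (2000 variable genes, 40 components, 20 neighbours, resolution 1) after barcodes with under 200 genes or over 20% mitochondrial UMIs were left out. Scrublet marked 8 barcodes of HSW and 30 of HSK, a share too small for libraries of this size, so barcodes with a second lineage above 0.15 of its reference level and at least 3 UMIs were removed instead. Clusters were named from marker genes with at least 3 detected, no other lineage above 0.2 of its reference. Class names were rebuilt here, so they may differ from the study's.

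Counts were summed per class and library and given as CPM of the class total. HSK over HSW ratios have exact conditional binomial (Clopper-Pearson) intervals at 95%, and levels have Poisson intervals, which cover counting error only. A count of 0 was set against a floor of 3 counts. List medians used log2 ratios with 0.5 UMI added. Medians over all genes were computed for the HySu pair only, so the normoxia list medians stand without such a baseline. TMM factors came from edgeR 4.0.16. Named genes were the 10 (6 in smaller classes) largest and smallest ratios per class with at least 50 UMIs, 50 CPM, an interval leaving out 1 and 33.3% of the level in the highest class, and members of the gene lists. The ratios and the fold rule were run on simulated Poisson counts. These carry no spread between cells or mice, so the run checks the calculation only, not the calls in these data. Members and lists were chosen with earlier results of these data known. The thresholds for naming clusters and removing mixed cells, the ratios without the highest cell of each gene and the unthinned cycling shares were chosen after seeing the data. Some genes that met the rule for named genes are not reported here.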

Additional observations from a re-analysis of the deposited data

Results flagged for a closer look

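Of the genes named for the size of their ratio, 6 had large and opposite knockout ratios under HySu and in normoxia. Both ratios were at least 1.5-fold from 1, on opposite sides of it, and both counting intervals left out 1. Genes named only as list members were not counted here, and some met the same rule, such as Ccl5 in T and NK cells. Other named genes also lay on opposite sides of 1 but with a ratio nearer to it in one pair, such as Retnla in AT2 cells (1.47 and 0.569) and Xpo1 in classical monocytes (1.961 and 0.880). The difference is log2(HSK/HSW) minus log2(NK/NW). It was not tested on samples, since each group had 1 library. In interstitial macrophages it was -3.03 for the monocyte chemokine Ccl12 (0.217 under HySu and 1.78 in normoxia) and -2.71 for the lysosomal enzyme gene Hgsnat (0.329 and 2.24). In T and NK cells it was -2.25 for the killer cell factor Eomes (0.334 and 1.67) and 3.55 for Ifitm1 (4.17 and 0.352), a value that 1 HSK cell with 73.7% of the UMIs carried. In classical monocytes it was -1.69 for the antiviral gene Apobec3 (0.459 and 1.503), and in club cells -1.70 for Osgin1 (0.666 and 2.18).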

How the results depend on the processing

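No paired analysis was possible because each group had 1 library, and for the same reason no replicate could be left out. Over 31 main results, 214 values under alternatives stayed near the main one, 37 moved and 1 reversed, and over 108 named genes 626 stayed, 69 moved and 3 reversed. Counts of genes past the fold followed depth and the gene filter. With each cell thinned they were 82 in AT2 cells, 98 in alveolar macrophages, 191 in fibroblasts, 47 in club cells, 228 in dendritic cells, 250 in interstitial macrophages and 251 in T and NK cells. With genes of at least 20 UMIs they were 599 in fibroblasts, 962 in dendritic cells, 878 in interstitial macrophages and 871 in T and NK cells. With at least 200 UMIs they were 150.0 in classical monocytes, 42 in fibroblasts, 46 in club cells, 86 in dendritic cells, 78 in interstitial macrophages and 111 in T and NK cells. With only genes near their highest class they were 19 in AT2 cells, 18 in alveolar macrophages and 42 in club cells. With Scrublet calls alone removed, fibroblasts had 807, the interferon median in classical monocytes was -0.20 and the collagen median in fibroblasts 0.49.

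The cell cycle median in T and NK cells was 0.75 with the mean of each cell's CPM, 0.43 with thinning and 0.46 without the highest cells. The MHC class II median there was -0.13 with HSW and HSK clustered alone, -0.84 with the mean CPM and -0.86 with thinning. With only genes near their highest class, the neutrophil median in AT2 cells was 0.27, and the surfactant median in alveolar macrophages reversed to -0.048. The share ratio of AT2 cells was 1.51 with all barcodes and 1.498 with Scrublet calls removed. That of alveolar macrophages was 1.76, 1.72, 1.68 with HSW and HSK clustered alone, and 1.36 above the highest library minimum of UMIs. That of non-classical monocytes was 0.0367 at resolution 1.5. Among named genes Uchl1 (0) and Il10 (0.678) reversed without the highest cells and Aldh1a2 (2.93) with clusters weighted equally. The causes were not tested beyond what each alternative changes by construction. Equal weighting was possible in AT2 cells, alveolar macrophages and dendritic cells only, and the ratios of Grem1, Thbs4, Resp18 and Sncg, at 0 UMIs in HSW, were not recomputed.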

Other observations

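Classes with fewer than 50 cells in one HySu library were not compared by gene, but their shares differed. Non-classical monocytes, the patrolling cells of the circulation, were 223 cells in HSW and 44 in HSK, a share ratio of 0.207 [0.146, 0.287], against 0.509 for NK over NW. B cells were 73 and 11 cells, a ratio of 0.158, with 1.02 in normoxia. Unnamed clusters with Ighd first among their leading genes were not counted with them. These held 8, 10 and 3 cells in HSW and 7, 5 and 1 in HSK. Plasmacytoid dendritic cells were 14 and 3 cells (0.224). Neutrophils were 51 and 31 cells (0.636 [0.394, 1.01]). Unnamed clusters with Cxcr2, G0s2 and S100a9 among their leading genes were not counted in that class. The cluster led by Il1b and Cxcr2 held 11 cells in HSW and 13 in HSK, and that led by Lyz1 and Il1b held 3 and 9. Neutrophil transcripts were higher in several other classes of HSK. Ciliated cells (40 and 42), plasma cells (26 and 18), smooth muscle cells (12 and 11) and alveolar type 1 cells (13 and 7) were too few for a direction. In all, 203 kept cells of HSW and 220 of HSK fell in clusters without a name, those given above among them.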
